A study of Mus musculus with 6 samples.

Results

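The 27 genes described here are 19 enzymes of the route from acetyl-CoA to cholesterol and to the longer isoprenoids, 6 genes that control the transcription factor SREBP2, and Stard4 and Tmem97, which SREBP2 is known to induce. They were chosen by symbol from the 23282 rows of the count files, each matched 1 row, and all 27 were among the 12505 rows that passed the filter on low counts. The list is not the whole pathway, and its remaining genes were not analysed here. The samples were livers of male C57BL/6N mice, aged 8 weeks when a 12 week high-fat diet began. From the end of week 8 of diet they received either oral vehicle or oral atractylodin (10 mg/kg), 5 days per week for 4 weeks, and each group had 3 libraries of 3' end counts. Both groups ate the high-fat diet, so no value here sets the diet against a control diet. The labels do not say whether each library came from its own animal, and the spread behind every p-value is that between libraries.

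The liver makes much of the body's cholesterol, and it senses how much sterol its membranes hold. When sterol in the endoplasmic reticulum is low, the escort protein SCAP carries SREBP2 to the Golgi, where the site-1 and site-2 proteases cut it and free a transcription factor that turns on nearly every enzyme of the pathway. When sterol is high, the INSIG proteins hold SCAP and SREBP2 back. Because the enzymes share this switch, their transcripts usually move as a block.

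The DNA before the start sites of these genes was searched for letters that SREBP2 and its partners are known to bind. RefSeq start windows on GRCm38.p6, which reach from 250 bases before to 50 bases after an annotated start, matched 23 of the 27 genes with 29 windows, and Fdft1, Sqle, Fdps and Stard4 had none. Both strands were searched for a sterol regulatory element written TCACNCCAC, for the CCAAT box of the cofactor NF-Y (CCAAT), for the GC box of Sp1 (GGGCGG) and for the E-box CACGTG. No match overlapped a match of another motif in these windows. The 250 bases before the start are shown for 4 genes, 5' to 3' on the strand of the gene, with the sterol element and CCAAT boxes (CCAAT, or ATTGG when on the other strand) in capitals. Hmgcs1 (chr13:119690101-119690350, plus strand) is shown because it alone held the sterol element letters, and Msmo1 (chr8:64733579-64733828, minus strand) because its level varied widely between vehicle libraries. Dhcr7 (chr7:143829964-143830213, plus strand, the most downstream of its 3 windows) and Ggps1 (chr13:14063489-14063738, minus strand) are the genes whose change passed the test. Of the 3 Dhcr7 windows, only the window shown held CCAAT boxes, and counts from the 3' end do not separate these windows.
Hmgcs1: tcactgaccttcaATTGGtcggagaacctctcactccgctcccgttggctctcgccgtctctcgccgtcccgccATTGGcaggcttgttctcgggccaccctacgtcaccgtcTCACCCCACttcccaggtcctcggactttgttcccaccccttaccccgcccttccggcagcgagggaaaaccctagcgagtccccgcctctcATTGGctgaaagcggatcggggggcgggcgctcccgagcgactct
Msmo1: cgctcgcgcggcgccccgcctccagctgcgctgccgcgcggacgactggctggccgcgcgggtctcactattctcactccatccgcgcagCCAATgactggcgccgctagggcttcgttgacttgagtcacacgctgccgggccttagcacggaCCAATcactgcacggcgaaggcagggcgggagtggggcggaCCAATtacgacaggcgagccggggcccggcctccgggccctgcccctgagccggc
Dhcr7: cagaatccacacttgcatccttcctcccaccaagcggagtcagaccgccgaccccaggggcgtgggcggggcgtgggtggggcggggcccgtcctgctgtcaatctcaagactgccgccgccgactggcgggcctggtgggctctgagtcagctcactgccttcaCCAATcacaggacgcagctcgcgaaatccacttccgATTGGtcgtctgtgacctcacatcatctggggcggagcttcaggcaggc
Ggps1: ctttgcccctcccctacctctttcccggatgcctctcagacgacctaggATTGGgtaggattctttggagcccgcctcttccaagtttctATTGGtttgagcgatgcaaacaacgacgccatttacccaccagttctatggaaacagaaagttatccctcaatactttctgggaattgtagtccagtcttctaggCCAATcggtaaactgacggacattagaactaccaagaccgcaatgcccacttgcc

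The sterol element letters were in the Hmgcs1 window alone, 137 bases before the start, while 1.24% of all 32851 windows held them. Only these exact letters were searched for, so a sterol element that departs from them was not counted. A CCAAT box was in at least 1 window of 19 of the 23 genes (82.6%), against 41.1% of all 27025 genes with a window. Counted by window, 19 of 29 held it, against 37.4% of all, and 12 of the 29 held at least 2, against 11.7% of all. The Mvk window held 5 CCAAT boxes and the Hmgcs1 and Nsdhl windows 4 each. The GC box was in windows of 20 of the 23 genes against 38.2% of all genes, and the E-box in 5 of the 23 against 8.09%. The shares over all genes were not matched to the 23 genes for expression or base content. A match of letters is neither a binding site nor a reason for any change described below.

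**Figure D1:**
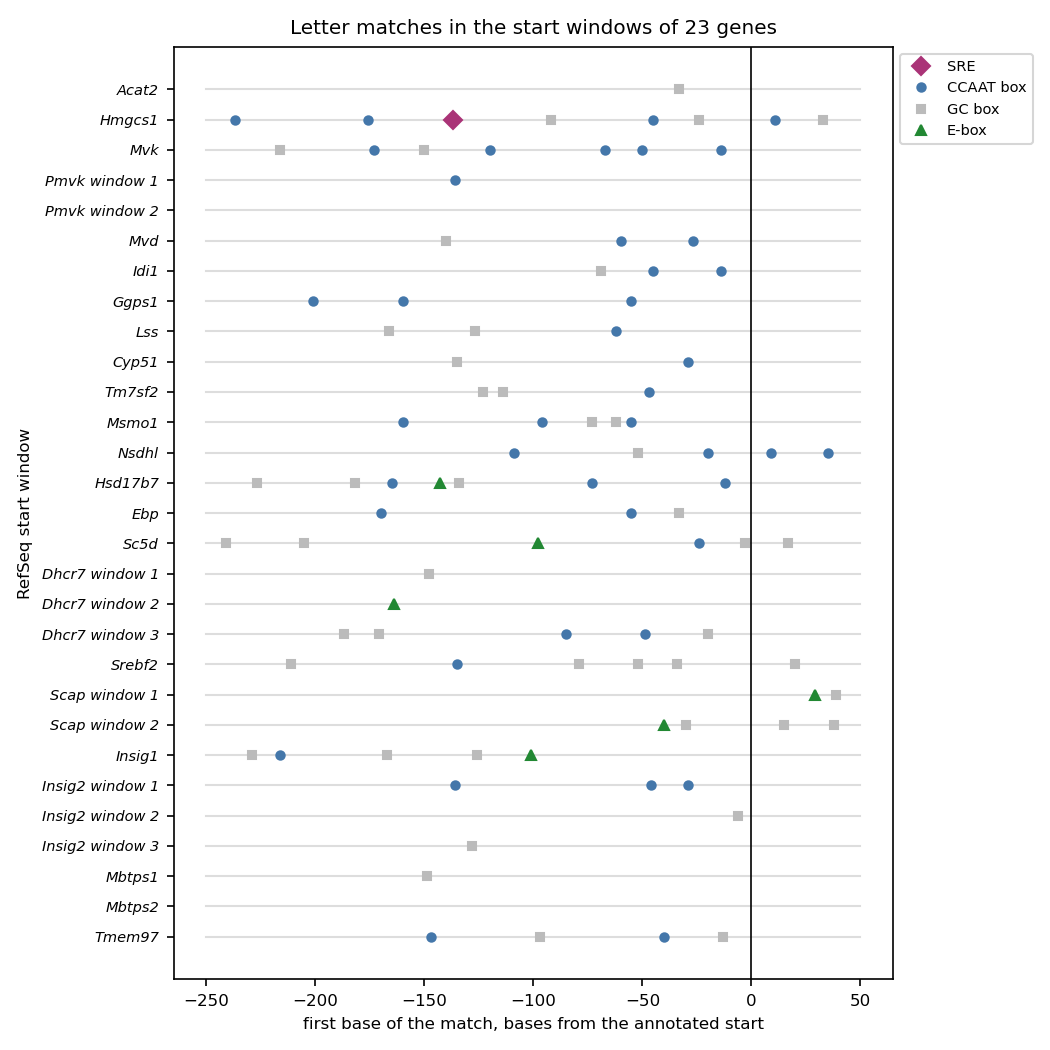
Each line is a start window of 1 gene in pathway order, drawn from 250 bases before to 50 after the annotated start (x axis, bases), and each symbol marks the first base of a match to 1 of 4 motifs on either strand. The single sterol element match is in Hmgcs1, and CCAAT boxes are in 19 windows, of which 12 hold at least 2.

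The libraries came from liver by their content, with the hepatocyte gene Alb at 47792 to 56104 CPM (counts relative to the TMM-scaled library size) in all 6. Total counts were 9871762 to 12565393 in 5 libraries and 1831461 in vehicle 1, where 3 counts equal 1.61 CPM against 0.313 CPM or less elsewhere, so genes of a few CPM are least precise there. The quasi-likelihood test of edgeR over 12505 rows called 416 lower (3.33%) and 490 higher (3.92%) under atractylodin at an adjusted p of 0.05.

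Cholesterol synthesis transcripts tended to lower values with atractylodin, but a single gene of the 27 fell past the test, Dhcr7, and a single gene rose, Ggps1. That is 1 of 27 in each direction, close to the shares of all tested rows just given. The estimates themselves lay mostly on the low side. They were below 0 for 25 of the 27 genes, where 50.2% of all rows were, and their median log2 fold change was -0.36, where that of all rows was 0.00. At an unadjusted p under 0.05, 8 of the 27 were lower (10.4% of all rows) and 1 higher (11.1% of all rows). The 3 atractylodin libraries lay below all 3 vehicle libraries for 5 genes, Acat2, Hmgcs1, Nsdhl, Dhcr7 and Tmem97 (12.6% of all rows), and above them for Ggps1 alone (13.5% of all rows). In bulk liver, fewer cells of a type and less RNA per cell cannot be told apart.

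This lean rested on vehicle 3. It was the highest of the 6 libraries for 22 of the 27 genes, where it was the highest for 13.6% of all tested rows, and it was the lowest for none of the 27. Without it, 14 of the 27 estimates were below 0, against 49.2% of all rows, and the median log2 fold change was -0.07. Without vehicle 1 the same figures were 25 and -0.39, and without vehicle 2 they were 25 and -0.59. Its total of 12111553 counts lay within the range of the other deep libraries. Tissue handling genes, early response and stress genes of which 0 of 7 tested passed in edgeR, summed to 92.0, 96.0 and 147 CPM in vehicle 1, 2 and 3 and to 119, 107 and 145 CPM in atractylodin 1, 2 and 3. Vehicle 3 was the highest of the 6 for that sum, with atractylodin 3 close to it, and the part of this in the levels of the 27 genes was not tested.

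**Figure D2:**
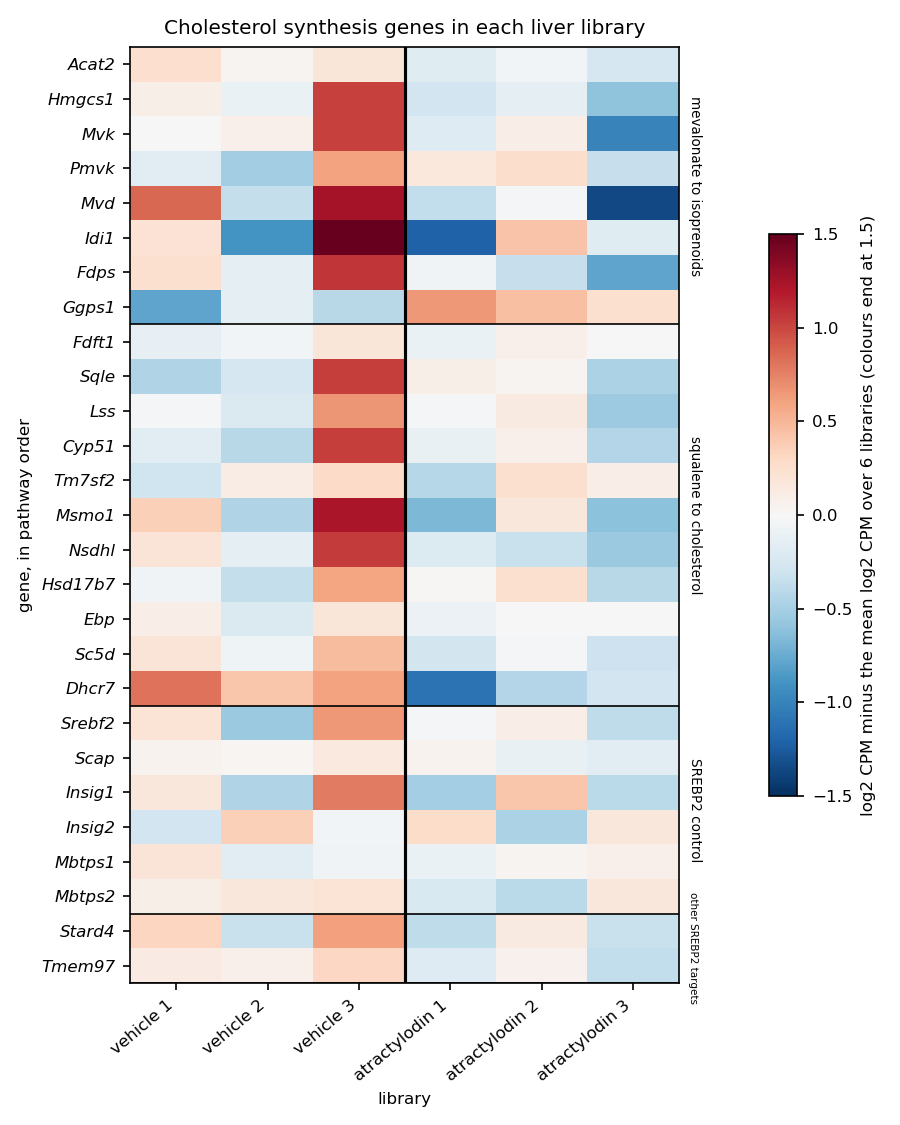
Each row is a gene in pathway order and each column a library, and colour gives log2 CPM minus the mean log2 CPM of that gene over the 6 libraries, with colours ending at 1.5 in either direction. The column of vehicle 3 is the reddest for 22 of 27 genes, Dhcr7 is red in all 3 vehicle libraries and blue in all 3 atractylodin libraries, and Ggps1 is the reverse.

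Dhcr7 encodes the reductase that turns 7-dehydrocholesterol into cholesterol, the closing step of the route, and its substrate is also the precursor of vitamin D. It lies on GRCm38 chromosome 7 from 143823145 to 143848410 and overlaps no other annotated gene. Its level was 13.996, 10.6 and 12.1 CPM in vehicle 1, 2 and 3 (26, 124 and 150 counts) and 3.69, 5.85 and 6.51 CPM in atractylodin 1, 2 and 3 (37, 56 and 78 counts). Every atractylodin library was below every vehicle library, and vehicle 3 was not the highest. The means were 12.3 ± 1.68 and 5.35 ± 1.48 CPM (SD, n = 3), a 2.22-fold fall (log2 -1.15 with an SE of 0.25, edgeR adjusted p = 0.0071). The call held in all 15 alternative fits, with adjusted p from 0.000206 to 0.0478 and log2 fold changes from -1.32 to -0.94, and the estimate without vehicle 3 was -1.13.

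Ggps1 encodes the synthase of geranylgeranyl diphosphate, a lipid that anchors proteins to membranes, and it draws on farnesyl diphosphate at the branch away from sterols. It lies on chromosome 13 from 14050659 to 14063488. Its level was 4.31, 6.78 and 5.58 CPM in the vehicle libraries (8, 79 and 69 counts) and 11.8, 10.2 and 8.85 CPM in the atractylodin libraries (118, 98 and 106 counts). The groups did not overlap, and this was the only gene of the 27 for which all atractylodin libraries were the higher ones. It rose 1.74-fold (log2 0.80 with an SE of 0.23, edgeR adjusted p = 0.043). The estimate stayed between 0.70 and 0.97 over the 15 alternatives, but the call held in 6 of them. Dropping a single library ended the call in 5 of 6 fits, and adjusted p over all 6 ranged from 0.0413 to 0.166. It was also lost with DESeq2 (adjusted p = 0.0918) and limma-voom (adjusted p = 0.0639).

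**Figure D3:**
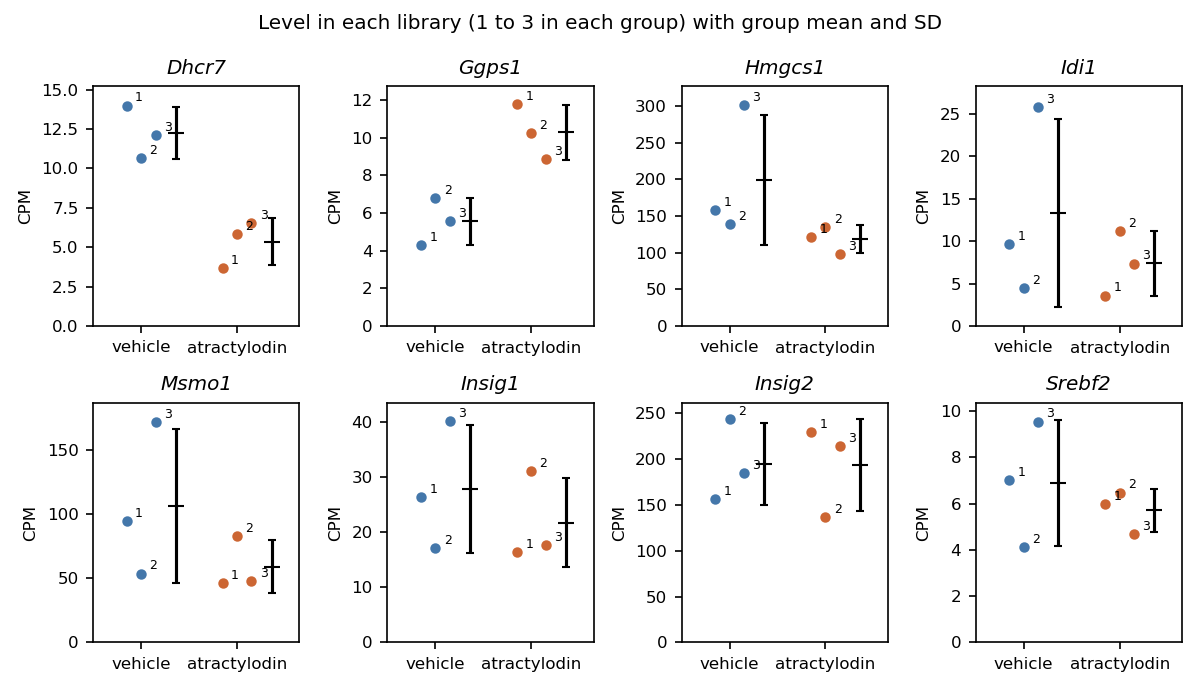
Each panel shows the CPM of 1 gene (y axis from 0) in vehicle libraries (blue) and atractylodin libraries (orange), numbered 1 to 3 within the group, with the group mean and SD as a black bar. Groups are apart for Dhcr7 and Ggps1, and narrowly for Hmgcs1. Vehicle 3 stands highest for Hmgcs1, Idi1, Msmo1, Insig1 and Srebf2, and Insig2 orders the libraries differently.

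The first steps join acetyl-CoA units and reduce and phosphorylate the product, mevalonate. Acat2 encodes the cytosolic thiolase that makes acetoacetyl-CoA. Its level was 118, 102 and 112 CPM with vehicle and 87.2, 96.5 and 83.4 CPM with atractylodin, with no overlap between groups and little spread within them (log2 -0.31 ± 0.10, edgeR adjusted p = 0.0656). Leaving out vehicle 3 moved this estimate only to -0.29. Hmgcs1, which adds the third acetyl unit to make HMG-CoA, stood at 158, 139 and 302 CPM with vehicle and 122, 135 and 97.8 CPM with atractylodin. Its groups also did not overlap, yet vehicle 3 stood far above the other vehicle libraries, 2.17-fold over the lowest. The log2 fold change was -0.77 ± 0.37 (edgeR adjusted p = 0.341) with all libraries and -0.32 ± 0.14 (adjusted p = 0.235) without vehicle 3.

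Mevalonate is then phosphorylated by the kinases of Mvk and Pmvk and decarboxylated by the enzyme of Mvd to give the isoprene unit. Mvk stood at 6.46, 6.87 and 13.3 CPM with vehicle and 5.68, 6.996 and 3.26 CPM with atractylodin. Mvd stood at 6.998, 3.005 and 9.14 CPM with vehicle and 2.99, 3.76 and 1.503 CPM with atractylodin, the most negative estimate of the 27 (log2 -1.20 ± 0.44, edgeR adjusted p = 0.129). In both genes vehicle 3 was the highest and atractylodin 3 the lowest library, and the groups overlapped. Without vehicle 3 the estimates were -0.35 for Mvk and -0.65 for Mvd. Mvd rests on 13 counts in vehicle 1 and 18 in atractylodin 3. Pmvk differed from its neighbours in the route, at 9.15, 7.13 and 15.4 CPM with vehicle and 11.4, 12.2 and 8.02 CPM with atractylodin, with an estimate of -0.06 that became 0.44 without vehicle 3.

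Idi1 encodes the isomerase that readies isoprene units for joining, and Fdps the synthase that joins 3 of them into farnesyl diphosphate, where the sterol and non-sterol branches part. Idi1 had the widest spread of the 27, at 9.69, 4.46 and 25.8 CPM with vehicle, a span of 5.78-fold, and 3.59, 11.2 and 7.35 CPM with atractylodin. Its low vehicle library, vehicle 2, lay below 2 of the atractylodin libraries. The log2 fold change was -0.93 ± 0.84 (edgeR adjusted p = 0.613) and its sign turned without vehicle 3 (0.30 ± 0.53). Fdps stood at 19.9, 15.3 and 35.4 CPM with vehicle and 16.2, 13.3 and 9.69 CPM with atractylodin (log2 -0.89 ± 0.36, edgeR adjusted p = 0.219). It passed with DESeq2 (adjusted p = 0.045) and without vehicle 2 (adjusted p = 0.0181), while without vehicle 3 the estimate was -0.37 (adjusted p = 0.470).

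Of these 8 genes up to farnesyl and geranylgeranyl diphosphate, 7 had estimates below 0, with a median of -0.80, and the median was -0.30 without vehicle 3. Of the 11 genes from squalene to cholesterol, all 11 had estimates below 0, with a median of -0.42. Without vehicle 3 the median was 0.03 and 4 of the 11 were below 0.

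In the sterol branch, Fdft1 encodes squalene synthase, Sqle the epoxidase that is a slow step of the pathway, and Lss the cyclase that folds the first sterol, lanosterol. Fdft1 was the steadiest of these, at 40.9 to 50.4 CPM with vehicle and 41.5 to 46.8 CPM with atractylodin (log2 -0.04 ± 0.12, edgeR adjusted p = 0.887). Sqle stood at 8.07, 9.27 and 22.7 CPM with vehicle and 11.8, 11.4 and 7.93 CPM with atractylodin. Here vehicle 3 was the single high library, and the other 2 vehicle libraries lay among the atractylodin ones. The estimate for Sqle was -0.49 ± 0.39 (edgeR adjusted p = 0.549) and 0.21 ± 0.26 without vehicle 3. Lss did the same over a narrower span, 7.56 to 13.8 CPM with vehicle and 6.01 to 9.61 CPM with atractylodin, with an estimate of -0.36 that became 0.03 without vehicle 3. That of Fdft1 became 0.07.

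Lanosterol loses 3 methyl groups through the enzymes of Cyp51, Tm7sf2, Msmo1, Nsdhl and Hsd17b7. Cyp51, the lanosterol demethylase, stood at 36.6, 30.8 and 83.8 CPM with vehicle and 38.1, 43.3 and 30.3 CPM with atractylodin (log2 -0.49 ± 0.47, and 0.18 ± 0.18 without vehicle 3). Msmo1, the methylsterol oxidase, stood at 94.2, 53.7 and 171 CPM with vehicle and 45.9, 82.6 and 48.0 CPM with atractylodin. Its vehicle span of 3.19-fold was the widest of the sterol branch, atractylodin 2 lay between vehicle 1 and vehicle 2, and the estimate was -0.87 ± 0.55 (edgeR adjusted p = 0.466), or -0.26 ± 0.42 without vehicle 3. Nsdhl, the dehydrogenase of the next step, stood at 11.3, 8.93 and 20.4 CPM with vehicle and 8.57, 7.83 and 6.68 CPM with atractylodin. Its groups did not overlap, though atractylodin 1 came close to vehicle 2, and the log2 fold change was -0.87 ± 0.28 (edgeR adjusted p = 0.0833), or -0.33 ± 0.26 without vehicle 3. Hsd17b7, a ketoreductase, and Tm7sf2, a sterol reductase, had estimates of -0.17 and -0.11 with overlapping groups, which became 0.20 and 0.01 without vehicle 3.

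Ebp, Sc5d and Dhcr7 finish the ring by moving and reducing double bonds. Ebp, the isomerase, was nearly level at 331 to 436 CPM with vehicle and 360 to 386 CPM with atractylodin (log2 -0.06 ± 0.10, and 0.03 without vehicle 3). Sc5d, the desaturase that makes the substrate of DHCR7, stood at 199, 166 and 242 CPM with vehicle and 143, 171 and 140.05 CPM with atractylodin. A single atractylodin library, atractylodin 2, reached into the vehicle range. Its estimate was -0.42 ± 0.13 (edgeR adjusted p = 0.0720), it passed when vehicle 2 (adjusted p = 0.00947) or atractylodin 2 (adjusted p = 0.0434) was dropped, and it was -0.26 ± 0.12 (adjusted p = 0.296) without vehicle 3.

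**Figure D4:**
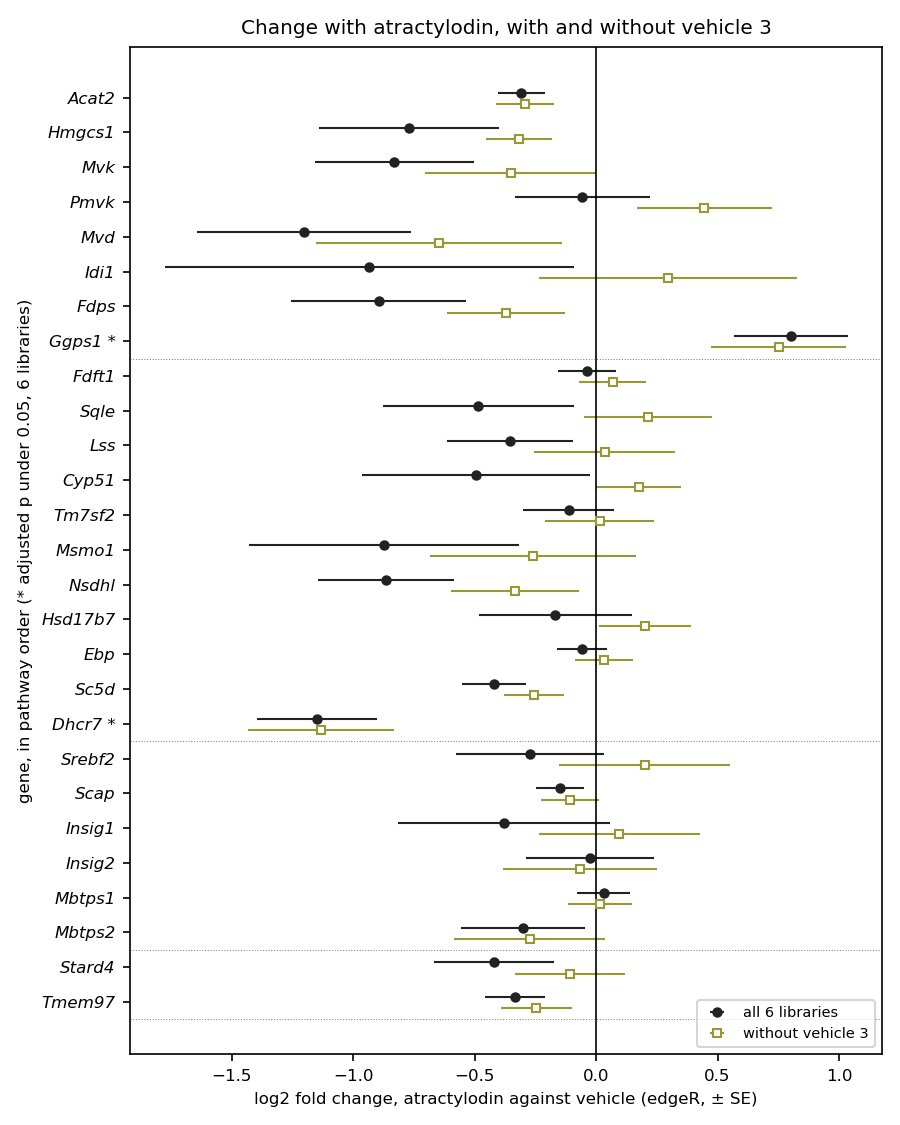
The x axis gives the log2 fold change of atractylodin against vehicle with its SE for each gene, as fitted on all 6 libraries (black circles) and without vehicle 3 (open squares), and stars mark an adjusted p under 0.05. Without vehicle 3 most estimates moved toward or past 0, while those of Dhcr7, Ggps1, Acat2, Scap, Insig2, Mbtps1 and Mbtps2 hardly moved.

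None of the 6 genes that control SREBP2 passed the test in edgeR, and none had an unadjusted p under 0.05, nor did any pass with DESeq2 or limma-voom. Srebf2, which encodes SREBP2 itself and is among its own targets, stood at 6.998, 4.12 and 9.54 CPM with vehicle and 5.98, 6.47 and 4.68 CPM with atractylodin. Its groups overlapped (log2 -0.27 ± 0.30, edgeR adjusted p = 0.657), and the sign turned without vehicle 3 (0.20 ± 0.35). The microRNA gene Mir33 lies within Srebf2 on the same strand and has no value here. Scap, the escort and sterol sensor, had the narrowest vehicle span of the 27, 85.2 to 92.5 CPM, and stood at 74.8 to 86.8 CPM with atractylodin (log2 -0.15 ± 0.10, adjusted p = 0.409). Mbtps1 and Mbtps2, the genes of the site-1 and site-2 proteases, had estimates of 0.03 ± 0.11 and -0.30 ± 0.26.

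The INSIG genes ordered the libraries in different ways. Insig1, which SREBP2 induces and whose protein retains SCAP, stood at 26.4, 17.2 and 40.2 CPM with vehicle and 16.4, 31.1 and 17.7 CPM with atractylodin (log2 -0.38 ± 0.44, edgeR adjusted p = 0.693), and the sign turned without vehicle 3 (0.10 ± 0.33). It was highest in vehicle 3 and in atractylodin 2, as most enzymes were, and lowest in vehicle 2 and in atractylodin 1. Insig2, whose protein does the same work but whose gene does not depend on SREBP2, stood at 156, 244 and 185 CPM with vehicle and 229.9, 137 and 214 CPM with atractylodin. It was highest in vehicle 2 and in atractylodin 1, the libraries where Insig1 was lowest, and lowest of all 6 in atractylodin 2. Its group means were 195.0 ± 44.8 and 193 ± 49.8 CPM (SD, n = 3), or -0.02 ± 0.26 in log2 (edgeR adjusted p = 0.971). Insig2 has 3 start windows in RefSeq, which counts from the 3' end do not separate.

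Stard4, a carrier that moves cholesterol between membranes, and Tmem97, a sterol-responsive membrane protein also known as the sigma-2 receptor, are induced with the enzymes. Stard4 stood at 30.1, 19.1 and 36.9 CPM with vehicle and 18.5, 26.5 and 19.1 CPM with atractylodin, with the same high and low libraries as Insig1. Tmem97 stood at 59.2, 57.3 and 67.6 CPM with vehicle and 47.7, 56.8 and 42.3 CPM with atractylodin. The groups of Tmem97 did not overlap, though atractylodin 2 came close to vehicle 2, and its log2 fold change was -0.34 ± 0.12 (edgeR adjusted p = 0.113, and 0.0436 without atractylodin 2) against -0.42 ± 0.25 for Stard4 (adjusted p = 0.378). Without vehicle 3 these estimates were -0.25 ± 0.15 for Tmem97 and -0.11 ± 0.23 for Stard4.

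The libraries within a group thus differed in a recurring order. In the atractylodin group, atractylodin 2 was the highest library for 18 of the 27 genes, where it was the highest for 33.0% of all tested rows, and atractylodin 3 the lowest for 16 (32.9% of all rows). In the vehicle group, vehicle 2 was the lowest for 20 of the 27 (32.1% of all rows). Taken over the 27 genes, the median deviation from the vehicle mean, in log2(CPM + 0.5), was -0.11, -0.34 and 0.49 in vehicle 1, 2 and 3 and -0.36, -0.07 and -0.51 in atractylodin 1, 2 and 3. Vehicle 2 was therefore near atractylodin 1, and vehicle 1 near atractylodin 2. For 12 of the 27 genes the highest vehicle library was at least 2-fold above the lowest, against 15.9% of all rows without 0 counts. Those rows numbered 12278. Vehicle 3 was the high library in all 12 genes. In the atractylodin group 3 genes, Mvk, Mvd and Idi1, spanned as much, against 13.2% of the same rows. The 27 genes lie on 15 chromosomes.

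**Figure D5:**
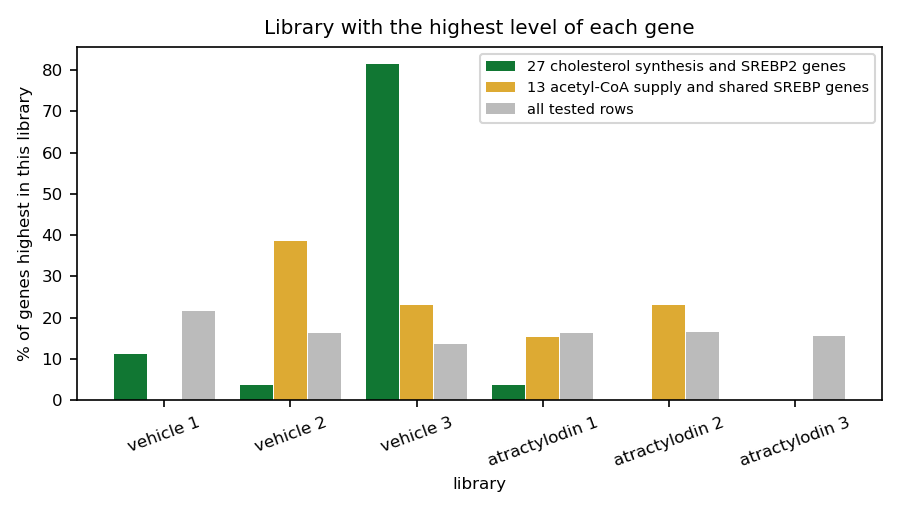
Bars give, for each library, the percentage of genes whose highest CPM of the 6 libraries was in that library, for the 27 genes (green), 13 acetyl-CoA supply and shared SREBP genes (yellow) and all 12505 tested rows (grey). Vehicle 3 held the highest level of 22 of the 27 genes, of 3 of the 13 and of 13.6% of all rows.

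Genes that supply acetyl-CoA or are shared by SREBP2 and the related factor SREBP1 mostly did not follow that order in the vehicle group. Of 13 such genes vehicle 3 was the highest of the 6 libraries for 3 (13.6% of all rows) and the lowest for 0 (13.6% of all rows). Vehicle 2 was the lowest vehicle library for 2 of the 13 (32.1% of all rows) and the highest for 7 (33.7% of all rows). Vehicle 1 was the lowest vehicle library for 8 of the 13 (37.9% of all rows). In edgeR 3 fell (3.33% of all rows) and 1 rose (3.92% of all rows), with a median log2 fold change of -0.32. The falls were those of Fasn, the fatty acid synthase, Acly, which cleaves citrate to acetyl-CoA (54.4, 56.1 and 51.5 CPM with vehicle and 36.2, 40.4 and 34.6 CPM with atractylodin, edgeR adjusted p = 0.0066), and Elovl6, a fatty acid elongase (adjusted p = 0.00977). For Acly vehicle 3 was the lowest vehicle library. Me1, the malic enzyme, rose. Srebf1, which encodes SREBP1, stood at 63.0, 49.3 and 57.5 CPM with vehicle and 17.5, 32.0 and 23.8 CPM with atractylodin, with no overlap between groups (edgeR adjusted p = 0.00391).

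The other lists around the pathway are given beside the 7.25% of all rows that edgeR called in either direction. Of 18 genes of the isoprenoid branches, 1 fell and the median log2 fold change was 0.08. It was Dhdds, a subunit of the transferase that builds dolichol, the carrier of sugars for protein glycosylation, at 28.5, 20.4 and 20.9 CPM with vehicle and 12.9, 14.8 and 14.03 CPM with atractylodin (edgeR adjusted p = 0.018). None of 15 tested genes for the turnover of SREBP regulators and of the pathway's reductase passed in edgeR (median 0.07), nor did any of 8 SREBP cofactor genes (median 0.13). Among 10 genes of the sterol sensor LXR and its targets, Srebf1 and the cholesterol exporter gene Abca1 fell (Abca1 1.31-fold, adjusted p = 0.0331) and none rose. Of 9 tested genes of sterol esterification and oxidation, Cyp7b1, an oxysterol hydroxylase, rose (51.8 ± 3.18 to 87.1 ± 20.4 CPM, SD, n = 3, adjusted p = 0.0148). Of 13 tested genes of intracellular sterol transport, 2 rose, Osbpl1a (144 ± 8.21 to 192 ± 7.18 CPM, adjusted p = 0.00801) and Vps13a (adjusted p = 0.0274).

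Beside these genes, some other measures differed between the groups and some overlapped. The counts of this paragraph are given beside the 3.33% of all rows called lower and the 3.92% called higher in edgeR. Among 14 tested clock genes 3 fell and 3 rose. The clock genes called were Per1, Cry1, Nr1d1, Nr1d2, Dbp and Hlf. The repressor gene Nr1d1 stood at 28.0, 22.7 and 26.8 CPM with vehicle and 9.86, 14.4 and 11.8 CPM with atractylodin (edgeR adjusted p = 0.000994). Cholangiocyte markers fell for 3 of 4 tested genes, with a summed level of 64.7 to 81.3 CPM with vehicle and 33.3 to 36.6 CPM with atractylodin, and the defining keratin gene Krt19 was at most 1.12 CPM in any library. Summed hepatocyte markers overlapped between groups (101328 to 117321 and 103452 to 107017 CPM, 1 of 9 higher), as did Kupffer cell and macrophage markers (383 to 547 and 314 to 472 CPM, 0 of 12 past the test in edgeR). Liver endothelial markers summed to 435 to 447 CPM with vehicle and 350 to 398 CPM with atractylodin (3 of 9 lower), and pericentral hepatocyte markers had 4 of 10 lower and 2 higher. Periportal hepatocyte markers summed to 2382 to 3141 CPM with vehicle and 4657 to 5529 CPM with atractylodin, without overlap, with 2 of 9 lower and 1 higher. Of the 9 periportal estimates 5 were below 0, with a median log2 fold change of -0.12, so the sum does not stand for all 9 genes. The part of these differences in the levels of cholesterol synthesis genes was not tested.

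The number of the 27 genes called moved with the method. Scaling by total counts alone called 5 lower (5.65% of all rows), Acat2, Nsdhl, Sc5d, Dhcr7 and Tmem97, and 0 higher (2.5% of all rows). Without a filter on low counts edgeR called 6 lower (3.24% of all rows) and 1 higher (3.9% of all rows). Without vehicle 2 it called 6 lower, Mvd, Fdps, Nsdhl, Sc5d, Dhcr7 and Stard4 (2.29% of all rows), and 0 higher (2.8% of all rows). DESeq2 called Dhcr7 and Fdps lower (2.91% of all rows) and 0 higher (3.45% of all rows). Dhcr7 was the single call of limma-voom (3.09% of all rows lower, 3.5% higher). Another annotated gene has an exon over the last 300 bases of 7 of the 27 genes, on the opposite strand for Hmgcs1, Fdft1, Lss, Cyp51 and Scap and on the same strand for Fdps and Mbtps2, and the strand setting of the counting is not given in the sources used here.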

How the data were processed

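Liver RNA of 3 vehicle and 3 atractylodin samples was extracted with Trizol, and QuantSeq 3' libraries (Lexogen) were made from 500 ng, per the labels' protocols. What the authors deposited is a raw count for each gene symbol, without normalization. Bowtie2, bedtools and mm10 are named in the submitters' processing notes. The annotation, strand setting and treatment of reads matching several genes are not given in the sources used here. Counts were filtered with filterByExpr, scaled by TMM and tested with edgeR 4.0.16 (quasi-likelihood F-test, robust) under R 4.3.3, without covariates, with Benjamini-Hochberg adjustment over all 12505 rows at 0.05. SE is the log2 fold change over the square root of F. The steps were tested on simulated data.

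The genes and lists were chosen with earlier results of these data known. All 27 genes are named, and of each other pathway list up to 3 genes past the test in order of p. All clock genes called are named, with values for Nr1d1 alone. From marker lists the most abundant gene is named where needed, and Elovl6, Krt19, Mir33 and the neighbouring genes were picked with their values in view. Alternatives were DESeq2 1.42.0, limma-voom (limma 3.58.1), edgeR's likelihood ratio test, other scalings and filters, a block on replicate number, and each library left out in turn. No pair of libraries was a copy (chi-square per degree of freedom at least 2.75). Gene positions come from GENCODE M21 (GRCm38, also called mm10). Figures used matplotlib 3.10.9 under Python 3.11.15.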

Additional observations from a re-analysis of the deposited data

How the results depend on the processing

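The number of the 27 genes past the test was 2 in edgeR, 1 with limma-voom, 1 with the replicate number as a block, 5 with total counts alone and 7 without a filter on low counts, and it ranged from 1 to 6 when single libraries were dropped (1 without vehicle 1, vehicle 3 or atractylodin 1, 6 without vehicle 2). Of all rows, the share called lower and higher was 2.99% and 3.49% with the block, 1.67% and 2.17% without vehicle 1, 2.29% and 2.8% without vehicle 2, 1.8% and 1.84% without vehicle 3, and 2.56% and 3.07% without atractylodin 1. The cause was not tested. Without the filter, the calls beyond Dhcr7 and Ggps1 were Mvk, Mvd, Fdps, Nsdhl and Sc5d. The median over the genes tested stayed below 0 in all 15 alternatives (26 genes at a mean CPM of at least 5, which leaves out Mvd, and 27 in the others), from -0.59 without vehicle 2 to -0.07 without vehicle 3. Over all genes, the count of 906 ranged from 467 (without vehicle 3) to 751 when 1 library was left out, being 494 without vehicle 1. Total counts alone gave 312 higher and 707 lower calls, against 490 and 416.

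Same-numbered libraries of the groups deviated from their group means with correlations of -0.03, -0.09 and 0.02, and not every library correlated best with its own number, so the numbers were not taken to pair them. The replicate block gave 811 calls and took away that of Ggps1 (adjusted p = 0.0645). In vehicle 1, 8 counts of Ggps1 and 12 of Mvk limit what its depth can show.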

Other observations

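The values below were chosen after they were seen. Ggps1 shares 257 bases at its start with Arid4b on the opposite strand (chromosome 13, 14063232 to 14199603), a gene of a chromatin-binding protein. Arid4b stood at 66.2, 72.5 and 69.8 CPM with vehicle and 99.9, 94.2 and 91.2 CPM with atractylodin (edgeR adjusted p = 0.00782), so both genes of this head-to-head pair rose.

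Mvk and Mmab, whose product prepares vitamin B12 for methylmalonyl-CoA mutase, are read in opposite directions from starts 208 bases apart. Mmab stood at 16.7, 10.2 and 16.7 CPM with vehicle and 6.88, 9.50 and 9.69 CPM with atractylodin, without overlap between the groups (edgeR adjusted p = 0.0716).

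Acat3, a close paralog next to Acat2 stood at 214, 228 and 223 CPM with vehicle and 192, 179.9 and 173 CPM with atractylodin (edgeR adjusted p = 0.0556). Akap9, whose end overlaps that of Cyp51 over 166 bases on the opposite strand, rose from 159 ± 4.78 to 199 ± 9.29 CPM (SD, n = 3, edgeR adjusted p = 0.0329), while Ctsb, which overlaps the end of Fdft1 over 774 bases, stood at 418 ± 54.6 and 369 ± 20.2 CPM (adjusted p = 0.319).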
